A study of Mus musculus with 60 samples.

Results

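The genes of the NF-kB module itself were read across brain region, tumor status and time of day. They are the 10 genes of a 770 gene panel that encode 2 inhibitors (Nfkbia, Nfkbie), 4 DNA-binding subunits (Nfkb1, Nfkb2, Rela, Relb) and 4 kinases or kinase partners (Ikbkb, Ikbkg, Ikbke, Chuk). They were taken by gene symbol, and all 10 were found in the normalized data. RNA came from the hippocampus (HPC), hypothalamus (HYP) and brain stem (BS) of 20 female Balb/C mice, 13 weeks old at collection, and was counted on a nanoString nCounter panel of mouse neuroinflammation genes, in which color-coded probes bind each transcript directly. Tumor-bearing mice had received 67NR cells, a non-metastatic line derived from 1 spontaneous mammary tumor of a Balb/c-background mouse, in the fourth and the ninth mammary glands. Vehicle mice had received DMEM culture medium at the same sites. Brains were collected on day 25, in the middle of the dark phase (mid-dark, ZT19, where ZT counts hours from lights on) or of the light phase (mid-light, ZT7), from 5 mice in each of 4 groups, so every group shared the strain, sex, age, surgery and PBS perfusion. Of 60 listed samples 56 had values, 20 for HPC, 17 for HYP and 19 for BS. The HYP of vehicle mice had 3 mid-dark and 4 mid-light samples, the BS of vehicle mice had 4 mid-dark samples, and every other group had 5.

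In resting cells, inhibitor proteins hold dimers of the NF-kB subunits in the cytoplasm. In the canonical route, inflammatory signals such as IL-1, TNF or Toll-like receptor ligands activate the IKK complex of Ikbkb, Chuk and the regulatory subunit Ikbkg, which marks the inhibitors for degradation, and dimers with Rela and the p50 product of Nfkb1 enter the nucleus. Nfkbia is itself a target of those dimers, so newly made IkB-alpha ends the response. In the non-canonical route Chuk acts on the p100 product of Nfkb2, which is processed to p52, the partner of Relb. Glia, endothelial cells and neurons of the brain all hold the pathway, and control lies largely in protein turnover, which transcript levels do not measure.

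RefSeq promoter windows (GRCm38), from 250 bases before to 50 after a gene's start, were at hand for 7 of the 10 genes in 12 windows. The 10-base kB consensus, searched on both strands, matched in 5 of the 12 windows, which belong to 3 genes, Nfkbia, Nfkbie and Nfkb2, and 2 of the Nfkb2 windows overlap. It matched in 13.4% of the windows of panel genes and 8.46% of the 32851 mouse windows of the same table. The E-box of clock proteins, CACGTG, was in none of the 12 windows, in 9.5% of the windows of panel genes and in 7.15% of all windows. No window was at hand for Nfkb1, Relb or Ikbkb, so neither search covers them. The 250 bases before the start of Nfkbia, Nfkbie and Nfkb2 are shown, 5′ to 3′ along the gene's strand. They were chosen because they include both inhibitors and because Nfkbia and Nfkb2 differed with time of day over the 3 regions, averaged over tumor and vehicle mice. In vehicle mice alone neither of these time-of-day differences passed its test. Capitals mark the letters that match the kB consensus. A match is a description of the sequence and not evidence of binding in these samples.
Nfkbia, chr12:55492648-55492897, minus strand: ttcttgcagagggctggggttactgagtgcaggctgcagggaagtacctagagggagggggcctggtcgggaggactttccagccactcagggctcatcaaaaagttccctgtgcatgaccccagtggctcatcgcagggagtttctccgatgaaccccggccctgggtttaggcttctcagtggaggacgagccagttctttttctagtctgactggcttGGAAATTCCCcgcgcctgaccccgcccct
Nfkbie, chr17:45555450-45555699, plus strand: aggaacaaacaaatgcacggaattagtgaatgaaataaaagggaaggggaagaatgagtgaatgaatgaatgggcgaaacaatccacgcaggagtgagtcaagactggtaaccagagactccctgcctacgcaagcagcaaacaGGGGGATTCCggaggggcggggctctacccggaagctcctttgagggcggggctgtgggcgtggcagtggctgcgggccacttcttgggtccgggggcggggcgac
Nfkb2, chr19:46304487-46304736, plus strand: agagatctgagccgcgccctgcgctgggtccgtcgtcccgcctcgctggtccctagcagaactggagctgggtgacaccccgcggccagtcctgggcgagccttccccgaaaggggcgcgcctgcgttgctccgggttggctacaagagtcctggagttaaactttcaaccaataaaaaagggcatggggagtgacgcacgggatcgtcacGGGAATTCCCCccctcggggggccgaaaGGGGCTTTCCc
The match of Nfkbia began 29 bases before the start and that of Nfkbie 106 bases before it. Nfkb2 had 2 marked stretches in this window, beginning 39 and 11 bases before the start, and the first of them matched on both strands in overlapping positions. The windows of Rela, Ikbkg, Ikbke and Chuk held no match to this consensus.

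Throughout, values are log2 levels after the authors' normalization, and probes differ in efficiency, so levels are compared between samples and not between genes. Slc17a7, the vesicular glutamate transporter of hippocampal excitatory neurons, was 12.98 ± 0.19 in HPC (SD, n = 20) against 7.22 ± 1.25 in HYP (n = 17) and 10.03 ± 0.28 in BS (n = 19), and the 10 oligodendrocyte markers averaged highest in BS, so the region labels matched their markers. The recorded absorbance ratio of the RNA, a purity measure, was under 1.8 in 6 of the 56 samples, of which 3 were the BS of tumor mice at mid-dark (1.34 to 1.99 over that group) and 1 each was BS of tumor mice at mid-light, BS of vehicle mice at mid-light and HPC of vehicle mice at mid-dark. The samples are bulk tissue, where fewer cells of a type and less RNA per cell cannot be told apart.

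Between brain regions 4 of 10 members passed for HPC against HYP, 7 of 10 for HPC against BS and 8 of 10 for HYP against BS, where 71.7%, 76.6% and 66.5% of the 770 genes did, so the members were not set apart from the panel by these counts. Relb, the subunit of the non-canonical route, had the regional difference with the smallest adjusted p among them, highest in HPC, intermediate in BS and lowest in HYP. Its levels ran from 8.05 through a median of 8.24 to 8.50 in HPC, from 7.40 through 7.74 to 7.94 in BS, and from 7.23 through 7.36 to 7.61 in HYP. No HPC sample overlapped a sample of either other region, a separation seen for 19.7% of the 770 genes between HPC and HYP and 26.2% between HPC and BS. The difference was 0.84 ± 0.04 (log2, SE) or 1.80-fold over HYP (adjusted p = 1.67e-23 by limma with mouse as a random block) and 0.52 ± 0.04 over BS (limma adjusted p = 1.61e-16), and it had the same direction in all 17 and all 19 mice with both regions. BS exceeded HYP by 1.25-fold (limma adjusted p = 5.44e-09), in 16 of 16 mice.

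**Figure D1:**
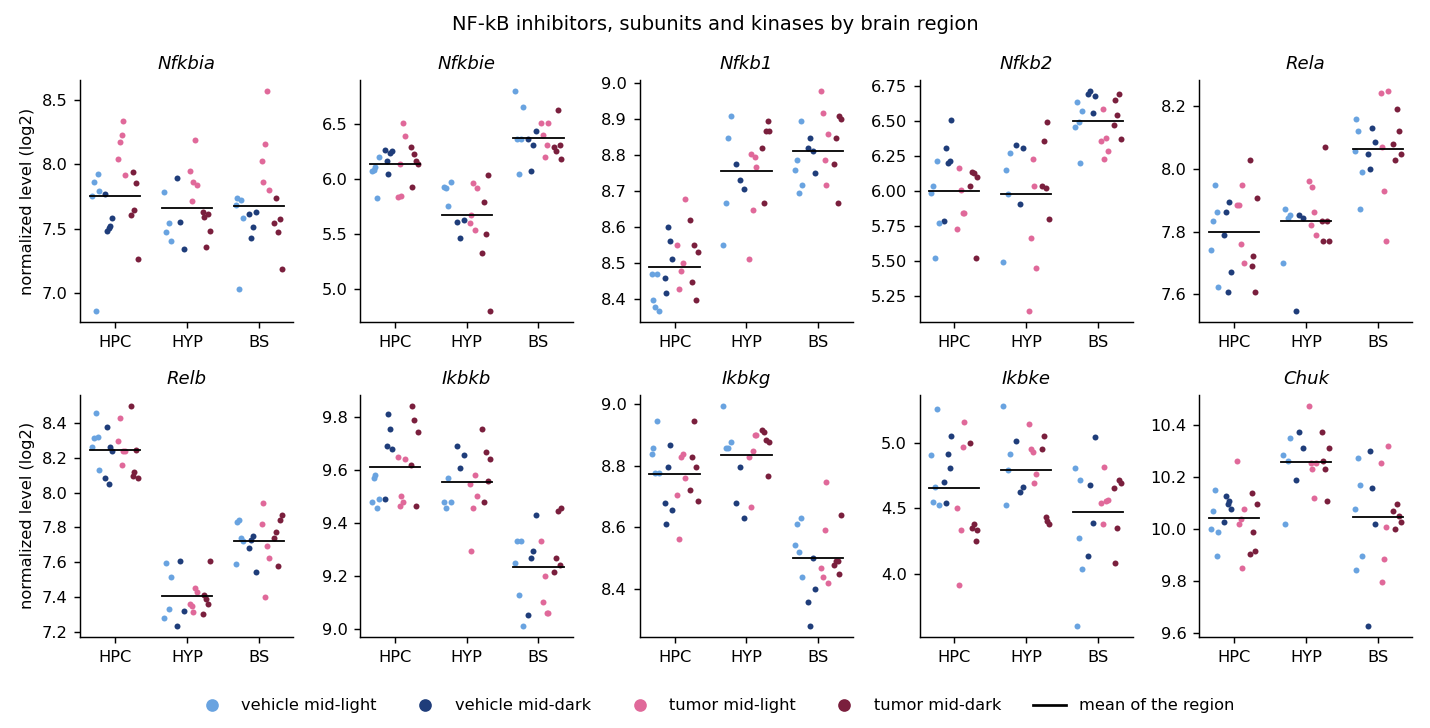
Normalized log2 level of the 10 members (1 panel each, separate vertical scales) in hippocampus (HPC), hypothalamus (HYP) and brain stem (BS), with 1 point per mouse colored by group and a line at the regional mean. Relb in HPC lay between 8.05 and 8.50, above every sample of the other regions, whereas Nfkbia overlapped in all 3.

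Nfkb2, which encodes the p100 precursor of Relb's partner, did not follow Relb. Its lowest, median and highest levels were 6.20, 6.54 and 6.71 in BS, 5.52, 6.03 and 6.51 in HPC, and 5.14, 6.03 and 6.49 in HYP. It was higher in BS by 1.42-fold over both HPC (limma adjusted p = 4.94e-08) and HYP (limma adjusted p = 2.65e-07), while HPC and HYP differed by 0.00 (95% interval -0.16 to 0.16). The canonical subunits were also higher in BS than in HPC. Rela, the main activating subunit, was 1.20-fold higher in BS than in HPC and 1.18-fold higher than in HYP. Nfkb1, which encodes p105 and p50, was 1.25-fold higher in BS than in HPC, in 19 of 19 mice, and 1.20-fold higher in HYP than in HPC, whereas HYP and BS did not pass the test (-0.06 ± 0.03, limma adjusted p = 0.096).

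The kinase genes went the other way, with BS lowest for the canonical pair. Ikbkb, the kinase of the canonical route, had a lowest, median and highest level of 9.45, 9.60 and 9.84 in HPC, 9.29, 9.56 and 9.75 in HYP, and 9.01, 9.25 and 9.45 in BS. HPC exceeded BS by 1.29-fold (limma adjusted p = 6.59e-14) and HYP exceeded BS by 1.25-fold (limma adjusted p = 4.33e-11), each in every mouse with both regions (19 of 19 and 16 of 16). Ikbkg, the regulatory subunit also called NEMO, was likewise lower in BS in every such mouse, by 1.21-fold against HPC and 1.26-fold against HYP. Chuk, the kinase shared by both routes, was highest in HYP instead, at 10.26 ± 0.11 (SD, n = 17) against 10.04 ± 0.10 in HPC (n = 20) and 10.05 ± 0.18 in BS (n = 19). HYP differed from both, by 0.22 ± 0.05 each (log2, SE), and HPC and BS were indistinguishable (difference 0.00, 95% interval -0.09 to 0.08). Ikbke, an IKK-related kinase best known from antiviral signaling, ran from 3.60 to 5.28 over all samples, with a low mean of 4.63. It passed the test only between HYP and BS (0.33 ± 0.10, limma adjusted p = 0.00363). The alternative that asked for a mean log2 level of at least 5 left Ikbke out, so this call was not checked there.

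The 2 inhibitors differed in their regional pattern. Nfkbie, which encodes IkB-epsilon, was lowest in HYP, from 4.79 through a median of 5.67 to 6.03, and highest in BS, from 6.05 through 6.37 to 6.81, with no sample shared between those ranges (the case for 15.6% of all genes). The BS to HYP difference was 1.62-fold (limma adjusted p = 4.35e-12), in 16 of 16 mice, and HPC lay between them. Nfkbia was the 1 member that passed no regional test, with means of 7.75 ± 0.34 in HPC, 7.66 ± 0.23 in HYP and 7.68 ± 0.34 in BS (SD). The 95% intervals of the differences reached at most 0.25 log2. Within mice, HPC exceeded BS in 16 of 19 (0.09 ± 0.14, SD) and HYP in 12 of 17 (0.17 ± 0.21). HYP exceeded BS in 6 of 16 mice and was lower in 10. Nfkbia readings of 1 mouse correlated at 0.752, and the fit used a lower value common to all genes. Its tests therefore used only part of this pairing and do not show that Nfkbia was level across regions.

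Nfkbia, the feedback inhibitor, differed between groups of mice. At mid-light its level was higher in the tumor-bearing than in the vehicle mice, in each region, and at mid-dark the groups lay together. In HPC, the 5 tumor mice of mid-light read 8.04, 8.17, 8.23, 8.33 and 7.92, and the 5 vehicle mice of mid-light read 7.75, 7.86, 6.86, 7.93 and 7.79. Only the lowest tumor mouse fell below the highest vehicle mouse, and mouse 10 stood far below the other vehicle mice. At mid-dark, HPC levels were 7.61, 7.94, 7.64, 7.85 and 7.27 with tumors and 7.77, 7.48, 7.50, 7.53 and 7.59 with vehicle, which overlapped. The mean of the tumor mice was therefore 8.14 ± 0.16 at mid-light and 7.66 ± 0.26 at mid-dark (SD, n = 5 each).

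The same order appeared in the other regions. In BS the tumor mice of mid-light read 8.03, 7.86, 8.16, 8.57 and 7.80 and the vehicle mice of mid-light 7.68, 7.74, 7.03, 7.72 and 7.59. These groups did not overlap, as for 1.3% of all genes, and mouse 10 was again the low vehicle reading. At mid-dark, BS levels were 7.55, 7.74, 7.47, 7.58 and 7.19 with tumors and 7.61, 7.43, 7.52 and 7.63 with vehicle. In HYP the tumor mice of mid-light read 7.95, 7.71, 7.86, 8.19 and 7.84, against 7.78, 7.47, 7.55 and 7.41 in vehicle mice, so that 1 tumor mouse fell below the highest vehicle mouse. At mid-dark, HYP levels were 7.63, 7.60, 7.36, 7.61 and 7.48 with tumors and 7.89, 7.56 and 7.35 with vehicle, again overlapping. In HYP and BS all tumor mice of mid-light exceeded all tumor mice of mid-dark, as for 2.47% and 2.34% of all genes.

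**Figure D2:**
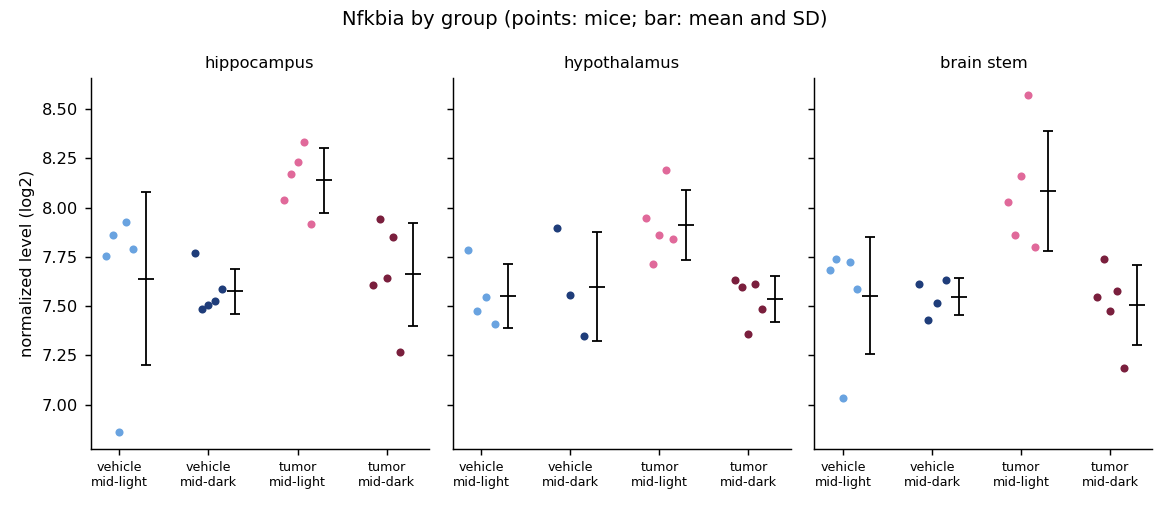
Normalized log2 level of Nfkbia by group in hippocampus, hypothalamus and brain stem, 1 point per mouse, with the mean and SD beside each group. Tumor mice at mid-light averaged 8.14 in hippocampus, against 7.64 in vehicle mice at mid-light and 7.66 in tumor mice at mid-dark.

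No region on its own carried this past correction for the panel. The tumor minus vehicle difference of Nfkbia at mid-light was 0.50 ± 0.17 in HPC (log2, SE, limma adjusted p = 0.419), 0.36 ± 0.12 in HYP (limma adjusted p = 0.617) and 0.53 ± 0.15 in BS (limma adjusted p = 0.147). At mid-dark it was 0.09 in HPC, -0.06 in HYP and -0.04 in BS. Within tumor mice, mid-dark minus mid-light was -0.48 ± 0.17 in HPC, -0.37 ± 0.11 in HYP and -0.58 ± 0.15 in BS (limma adjusted p = 0.248, 0.156 and 0.0864), and without mouse 10, a vehicle mouse that enters the shared variance, it passed in HPC (-0.48, adjusted p = 0.0486) and BS (-0.58, adjusted p = 0.0285). None of the 10 members passed a tumor test in a single region. In HPC 0.52% of the tested genes passed over both phases, 0.13% at mid-light and 0.13% at mid-dark, in HYP 0.26%, 0% and 0%, and in BS 1.04%, 0.78% and 0.26%. At an unadjusted limma p under 0.05, 1, 1 and 0 members were counted in HPC over both phases, at mid-light and at mid-dark (6.37%, 6.89% and 6.63% of genes). The counts were 0, 1 and 1 in HYP (7.14%, 5.19% and 4.81%) and 1, 1 and 0 in BS (6.5%, 4.81% and 7.28%).

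Averaged over the 3 regions in 1 fit with mouse as a random block, Nfkbia was 1.39-fold higher in tumor than in vehicle mice at mid-light (0.48 ± 0.09, limma adjusted p = 0.00123) and the mid-dark difference was -0.00 (95% interval -0.20 to 0.19), where no member passed, 1 had an unadjusted limma p under 0.05, and the panel's shares were 0.649% and 10.5%. In tumor mice it was 1.39-fold lower at mid-dark than at mid-light (-0.48 ± 0.09, limma adjusted p = 0.000404), and in vehicle mice the phases differed by 0.00 (95% interval -0.19 to 0.20). It was the 1 member of 10 that passed at mid-light, where 1.95% of the panel did, and over both phases it was also the 1 member that passed (0.24 ± 0.07, limma adjusted p = 0.0445, 2.34% of the panel). The difference between the mid-light and mid-dark tumor effects was itself -0.48 ± 0.13 and did not pass (limma adjusted p = 0.334). No member passed this interaction and 2 had an unadjusted limma p under 0.05, against 0.13% and 5.71% of the panel.

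These calls depended on how the regions of a mouse are combined. The readings of Nfkbia in the regions of 1 mouse had a correlation of 0.752, above the value of 0.136, common to all genes, that the fit used. With 1 mean value a mouse in place of the block, the tumor effect at mid-light was 0.51 (limma adjusted p = 0.112), the phase effect in tumor mice -0.48 (limma adjusted p = 0.0769) and the tumor effect over both phases 0.26 (limma adjusted p = 0.28), and none of these passed. The mean deviation of a mouse from its regions ran from 0.16 to 0.67 in the 5 tumor mice of mid-light, from -0.77 to 0.04 in the vehicle mice of mid-light and from -0.39 to 0.06 in the tumor mice of mid-dark, so the first group overlapped neither of the others. Two-sided exact permutation tests of those means gave p = 0.00794 for both comparisons, the smallest value that 5 against 5 mice allows, unadjusted over the panel and chosen after the values were seen, and 1.43% and 4.03% of all genes were separated in the same way. This p was not particular to Nfkbia. Ikbkg reached the same exact p for tumor minus vehicle at mid-dark (0.12) and for mid-dark minus mid-light in vehicle mice (-0.15). In the latter comparison 8.44% of all genes were separated in the same way, and for the former no share of the panel is given here. For Nfkbia, mouse 13 was the highest in all 3 regions and mouse 10 the lowest in its 2 regions. Without mouse 13 the tumor effect at mid-light over the 3 regions was 0.40 (limma adjusted p = 0.0193), and without mouse 10 it was 0.35 (limma adjusted p = 0.00409). The effect over both phases lost its call without any 1 of 13 mice (1, 3, 7, 8, 9, 10, 11, 12, 13, 19, 28, 30 and 32, adjusted p = 0.0601 to 0.137) and without the samples with an RNA absorbance ratio under 1.8 (0.26, adjusted p = 0.0501).

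**Figure D3:**
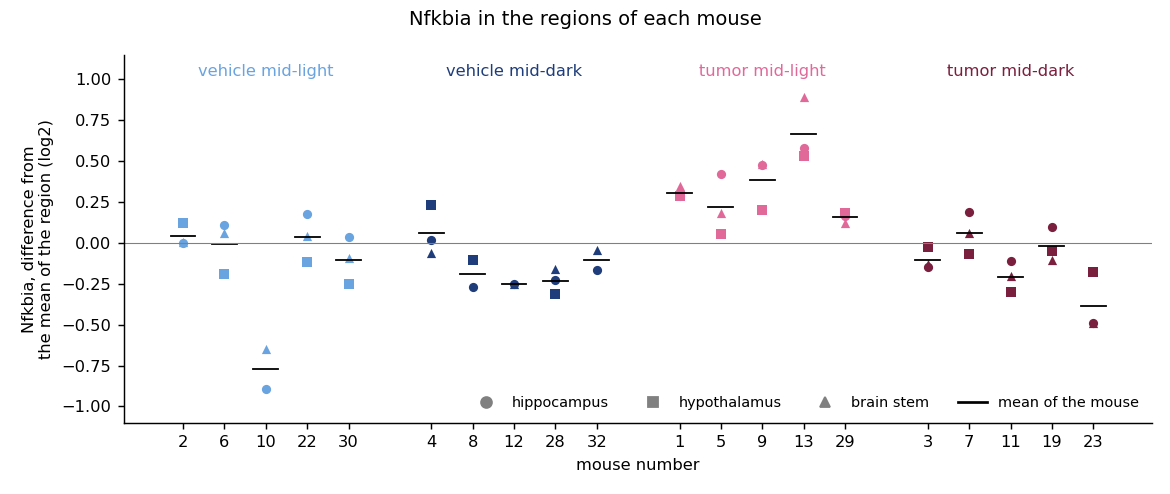
Difference of Nfkbia from the regional mean (log2) for every mouse, with 1 symbol per region and a line at the mean of the mouse, ordered by group. The 5 tumor mice of mid-light averaged 0.16 to 0.67, all above the other groups, mouse 13 was highest and mouse 10 lowest.

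Cell type markers were read beside Nfkbia. Of 10 endothelial markers, over the 3 regions, 1 was higher and 2 were lower in tumor than in vehicle mice at mid-light, where 1.95% of the panel passed. The mean log2 level of the list was 7.65 to 7.76 in the HPC of tumor mice at mid-light and 7.76 to 7.81 in vehicle mice at mid-light, in HYP it was 7.74 to 8.06 and 7.75 to 7.92, and in BS 7.86 to 8.11 and 7.91 to 8.02. Cldn5, the claudin of endothelial tight junctions, differed by -0.32 between tumor and vehicle mice at mid-light (limma adjusted p = 0.00839) and 0.55 higher at mid-dark than at mid-light in tumor mice (limma adjusted p = 3.39e-07), opposite in sign to Nfkbia in both, while Emcn differed by -0.26 and Ly6a by 0.49 between tumor and vehicle mice at mid-light. In tumor mice, Nostrin (-0.26, limma adjusted p = 0.0165) and Icam2 (-0.19, limma adjusted p = 0.0442) were lower at mid-dark, the same sign as Nfkbia, so that 1 endothelial marker was higher and 2 were lower. In tumor mice 4 of 10 oligodendrocyte markers (Opalin, Mag, Mog, Cnp) were lower at mid-dark over the 3 regions and none was higher. Their list averaged 9.68 to 10.6 at mid-dark against 10.5 to 11.0 at mid-light in HPC, 10.3 to 10.7 against 10.5 to 10.9 in HYP, and 11.5 to 11.8 against 11.9 to 11.9 in BS. Opalin was lower at mid-dark by nearly the same amount in vehicle mice (-1.12, limma adjusted p = 6.11e-13) as in tumor mice (-1.11). In vehicle mice Mag, Mog and Cnp did not pass and Myrf was higher at mid-dark (0.22). The panel's shares that passed these phase tests were 4.94% in tumor mice and 6.75% in vehicle mice. Of 9 microglial markers none passed between tumor and vehicle mice at mid-light and Sall1 was higher at mid-dark in tumor mice. Of 8 astrocyte markers, Sox9 was higher at mid-dark in tumor mice (0.19, limma adjusted p = 0.0388), opposite in sign to Nfkbia. The part of these cell types in the Nfkbia readings was not tested, and the neuron, lymphoid and neutrophil lists are not described here.

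Averaged over tumor and vehicle mice and the 3 regions, Ikbkb and Nfkb2 were higher at mid-dark, though Nfkb2 passed in neither group of mice alone and Ikbkb did not pass in vehicle mice alone. Ikbkb, the canonical kinase, had a higher median at mid-dark than during the light phase in every region. Its lowest, median and highest level was 9.46, 9.72 and 9.84 at mid-dark against 9.45, 9.50 and 9.65 for mid-light in HPC. In HYP it was 9.48, 9.65 and 9.75 against 9.29, 9.48 and 9.58, and in BS 9.05, 9.27 and 9.45 against 9.01, 9.16 and 9.33. Each pair of ranges overlapped. The differences were 0.16 ± 0.05 in HPC, 0.15 ± 0.05 in HYP and 0.11 ± 0.06 in BS (log2, SE), and none passed by region (limma adjusted p = 0.0917, 0.17 and 0.418), though HPC did without mouse 4 or mouse 19 (0.18 and 0.19, adjusted p = 0.0368 and 0.0238). Over the 3 regions Ikbkb was 1.10-fold higher at mid-dark (0.14 ± 0.03, limma adjusted p = 0.00282). This call was kept with 1 mean value a mouse (0.14, limma adjusted p = 0.0107) and without each of the 20 mice (limma adjusted p = 0.000942 to 0.0103). Within tumor mice the difference was 0.15 ± 0.05 (limma adjusted p = 0.0441) and within vehicle mice 0.13 ± 0.05 (limma adjusted p = 0.124), with an interaction of 0.02 ± 0.07. The call in tumor mice was lost with 1 mean value a mouse (adjusted p = 0.12) and without any 1 of mice 2, 3, 5, 7, 9, 11, 13, 23, 28 and 29 (adjusted p = 0.0506 to 0.185). Together with Nfkbia, 2 of 10 members passed the phase test in tumor mice, against 4.94% of the panel.

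Nfkb2 was also higher at mid-dark. Its lowest, median and highest level was 6.37, 6.65 and 6.71 at mid-dark against 6.20, 6.42 and 6.63 at mid-light in BS, 5.80, 6.17 and 6.49 against 5.14, 5.98 and 6.27 in HYP, and 5.52, 6.13 and 6.51 against 5.52, 5.91 and 6.21 in HPC. All 3 medians were higher at mid-dark and all ranges overlapped. The difference over the 3 regions was 0.23 ± 0.08 or 1.18-fold (limma adjusted p = 0.033), and with 1 mean value a mouse it was 0.24 (limma adjusted p = 0.0125). It lost its call without the samples with an RNA absorbance ratio under 1.8 (0.24, adjusted p = 0.0627) and without any 1 of mice 1, 2, 7, 10, 12, 28, 29 and 32 (0.20 to 0.23, adjusted p = 0.0505 to 0.0778). With the fall of Nfkbia (-0.24 ± 0.07, limma adjusted p = 0.0125, and 0.147 with 1 mean value a mouse), 3 of 10 members passed the phase test over the 3 regions, 2 higher and 1 lower at mid-dark, against 13.5% of the panel (8.05% higher and 5.45% lower). No member passed it in a single region, where 5.59% of the tested genes did in HPC, 2.34% in HYP and 4.94% in BS. At an unadjusted limma p under 0.05 each region counted 2 members, 1 higher and 1 lower, against 18.7%, 13.2% and 15.9% of genes.

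Ikbkg differed with time of day in vehicle mice. In HYP the 3 vehicle mice of mid-dark had a mean of 8.70 ± 0.08 (SD) and the 4 of mid-light 8.90 ± 0.07, without overlap (7.92% of all genes). Between these small groups 3 of 10 members were separated, as Nfkbie was also lower and Ikbkb higher at mid-dark. In HPC the means of Ikbkg were 8.72 ± 0.11 and 8.84 ± 0.07 and in BS 8.38 ± 0.09 and 8.55 ± 0.08. In tumor mice they were 8.79 ± 0.10 and 8.74 ± 0.11 in HPC, 8.87 ± 0.06 and 8.83 ± 0.10 in HYP, and 8.51 ± 0.07 and 8.53 ± 0.14 in BS. Over the 3 regions Ikbkg was 1.12-fold lower at mid-dark in vehicle mice (-0.16 ± 0.04, limma adjusted p = 0.0121, with 1 mean value a mouse -0.15 and 0.0469), the 1 member of 10 to pass where 6.75% of the panel did. The mouse means of the vehicle groups did not overlap, as for 8.44% of genes. Without mouse 4 the value was -0.15 and did not pass (adjusted p = 0.052). At mid-dark Ikbkg was 0.12 higher in tumor than in vehicle mice over the 3 regions. That difference did not pass (limma adjusted p = 0.255, and 0.334 with 1 mean value a mouse). The tumor by phase interaction was 0.18 ± 0.06 and did not pass (limma adjusted p = 0.377), and the difference within tumor mice was 0.03 (95% interval -0.05 to 0.10), so that the groups were not shown to differ in it.

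**Figure D4:**
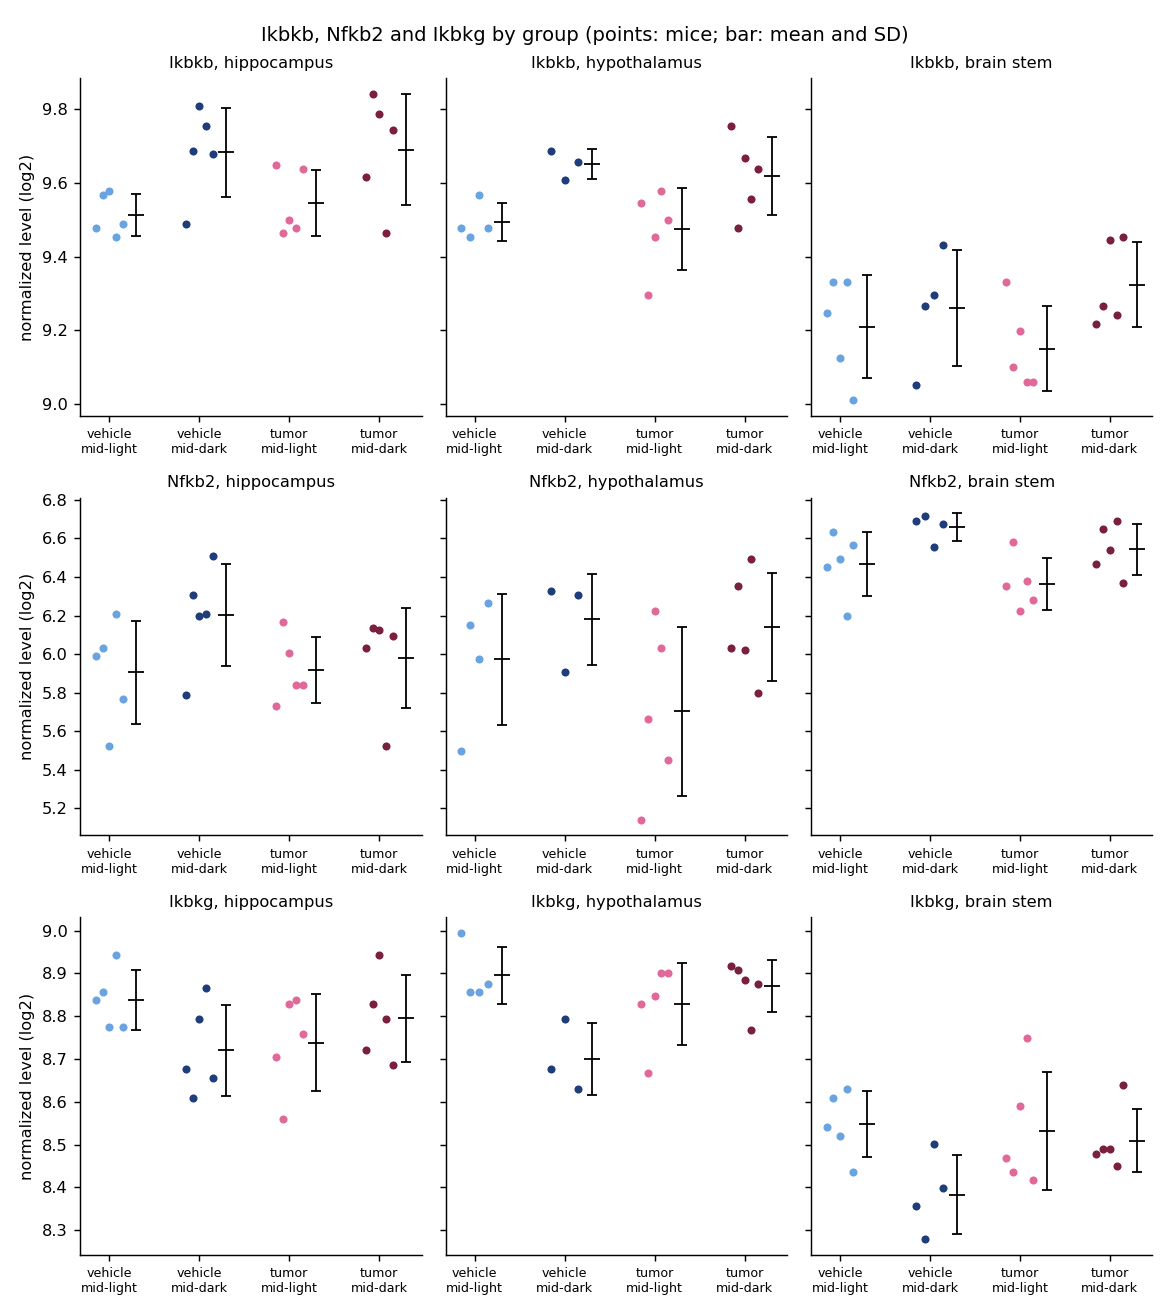
Normalized log2 levels of Ikbkb, Nfkb2 and Ikbkg (rows) by group in the 3 regions (columns), 1 point per mouse, with the mean and SD beside each group. In hippocampus Ikbkb averaged 9.69 for the mid-dark mice against 9.53 for mid-light, and Ikbkg was lowest in the vehicle mice of mid-dark in every region.

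The remaining members passed neither comparison over the 3 regions. The tumor differences of Nfkbie, Nfkb1, Rela, Relb, Ikbke and Chuk lay between -0.08 and 0.04 log2 and their phase differences between -0.11 and 0.03, by limma. The 95% interval of the tumor effect was -0.02 to 0.10 for Nfkb1, -0.03 to 0.12 for Rela and -0.08 to 0.08 for Relb. It was wider for Ikbke, at -0.27 to 0.12. The other subunit, Nfkb2, did not pass for tumor either. With 1 mean value a mouse its tumor effect was -0.12 (95% interval -0.24 to 0.01, limma adjusted p = 0.53). The tumor effect passed a test of difference between regions for no member and for 0% of the 770 genes in any pair, while 5.32%, 2.21% and 2.34% of genes had an unadjusted limma p under 0.05 for HPC against HYP, HPC against BS and HYP against BS, with 0, 1 and 0 members among them. Over all 10 members the median tumor effect across the regions was -0.00 and that of all genes -0.01.

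**Figure D5:**
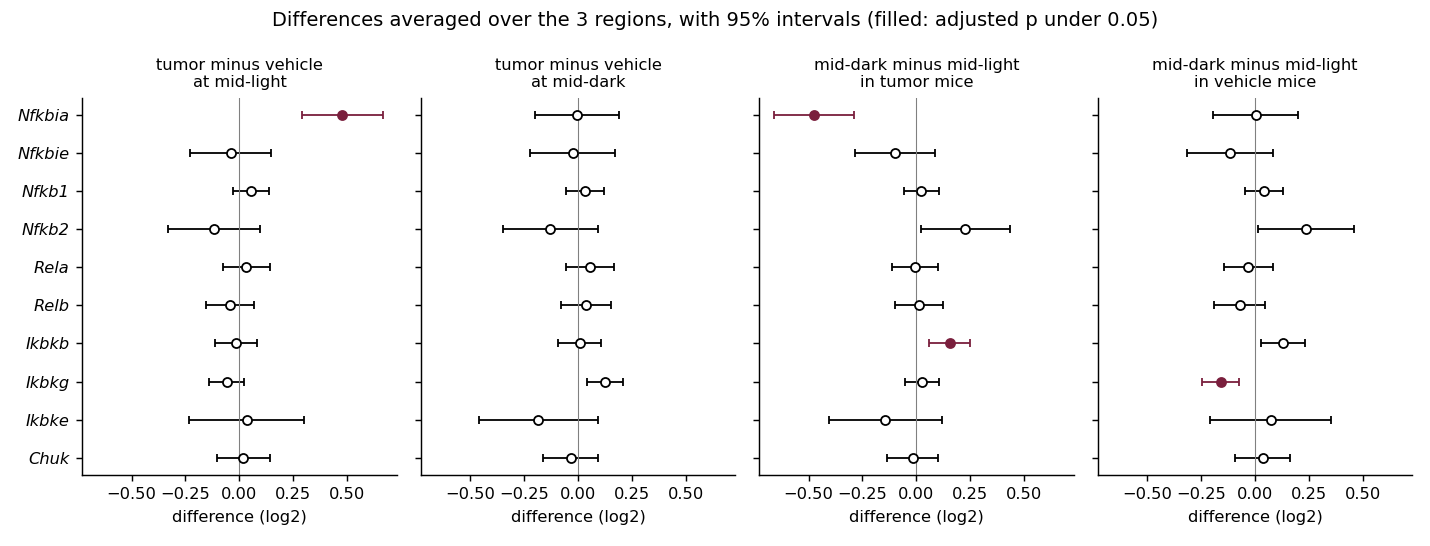
Differences of the 10 members averaged over the 3 regions, with 95% intervals, for tumor minus vehicle at each phase and mid-dark minus mid-light in tumor and vehicle mice (log2, limma fit with mouse as a random block). Filled symbols passed an adjusted p of 0.05, namely Nfkbia at 0.48 and -0.48, Ikbkb at 0.15 in tumor mice and Ikbkg at -0.16 in vehicle mice.

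Upstream of the complex, 29 of 30 listed receptors, adaptors and kinases were on the panel. This list too was chosen with earlier results of these data known, so its shares are descriptions only. In tumor mice 1 of the 29 (3.45%) rose over the 3 regions and none fell, beside 2.34% of all genes that passed. This was Il1r1, the signaling receptor of IL-1 (0.34 ± 0.07, limma adjusted p = 0.00191), with 0.60 ± 0.08 in BS (limma adjusted p = 0.000295). None of the 10 listed ligands passed a tumor or phase test over the 3 regions or in 1 region (limma), and over the 3 regions 1 had an unadjusted p under 0.05 for tumor and 0 for phase. With time of day, 4 of the 29 (13.8%) were higher at mid-dark over the 3 regions and none lower, where 8.05% of all genes were higher and 5.45% lower. They were Myd88, the adaptor of Toll-like and IL-1 receptors (0.18 ± 0.04), Tnfrsf12a, the receptor of TWEAK (0.21 ± 0.06), Traf3, which restrains the non-canonical route (0.14 ± 0.04), and the kinase Map3k1 (0.11 ± 0.04). In BS, Ngfr, the p75 neurotrophin receptor, was lower at mid-dark (-0.39 ± 0.08, limma adjusted p = 0.00935). The median phase difference of the 29 was 0.01, as for all genes.

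Of 28 listed genes with known kB-driven transcription, 27 were on the panel. Of these, 3 (11.1%) rose in tumor mice over the 3 regions while none fell, where 2.34% of all genes passed in either direction. The list was chosen with earlier results of these data known, so these shares do not test it. Lcn2, an acute-phase iron-siderophore binder, rose by 3.23 ± 0.22 (log2, SE, limma adjusted p = 4.69e-16). Ptgs2, which encodes cyclooxygenase-2, rose by 0.40 ± 0.10 (limma adjusted p = 0.0107), with 0.71 ± 0.13 in BS (limma adjusted p = 0.00713), and the survival gene Bcl2l1 rose by 0.09 ± 0.02 (limma adjusted p = 0.0445). Fas, a death receptor, passed in HPC (0.46 ± 0.08, limma adjusted p = 0.00763). The other 24 targets did not pass over the 3 regions, and the median effect of the 27 was -0.00, beside -0.01 for all genes. With time of day 2 of 27 (7.41%) were higher at mid-dark and none lower, near the 8.05% of all genes that were higher. They were Myc (0.21 ± 0.05) and Cflar, an inhibitor of caspase-8 (0.14 ± 0.05).

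After centering each region, the genes whose levels across the 56 samples were most like those of Nfkbia were Slc2a1, the glucose transporter of the blood-brain barrier (Pearson's r = 0.605), Ch25h, cholesterol 25-hydroxylase (0.567), and Gadd45g (0.508). For Ikbkb they were Kdm5c (0.625), Cdk20 (0.609) and Tfg (0.596), and for Nfkb2 Hdac4 (0.545), Csf3r (0.489) and Hspb1 (0.488). These are descriptions of samples that share mice and a normalization.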

How the data were processed

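The authors hybridized RNA to the nCounter panel and, per the methods, used nSolver to subtract the negative control background and to scale counts by positive controls and by the geometric mean of the codeset, then quantile normalized the samples in Partek. The deposited values are log2 levels of 770 genes, from -0.37 to 15.36, with sample medians of 8.07 to 8.09. Only these values were used, which leaves the depth in counts unknown, and precision rests on how many mice there were. The values of 4 listed samples, the BS of mouse 8 and the HYP of mice 10, 12 and 32, were not analysed here, and the labels say that raw-data outliers were left out. Quantile normalization forces equal distributions, so a shift shared by most genes would not be seen.

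Groups came from the labels, and the replicate was the mouse. All genes were fitted by limma 3.58.1 (R 4.3.3), with 4 group means in each region, or with 12 groups over the 3 regions and mouse as a random block (common correlation 0.136). Mouse numbers pair the regions because they come from the same animal. Genes that did not vary within a region were left out, so 769 to 770 were tested. P values were adjusted by Benjamini-Hochberg over all tested genes of a contrast, and a call is an adjusted p under 0.05. Contrasts of tumor within a phase, of phase within a tumor group and of their interaction over the 3 regions were added after the values by region were seen. The comparisons share groups of mice, so their results are not independent of each other. Exact tests used Python 3.11.15 with scipy 1.17.1 on numpy 2.4.6. The models were also run on simulated data with 1 mouse correlation for all genes, near the 0.136 of the fit. That run cannot speak for Nfkbia, whose own correlation was 0.752.

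All 10 members were named. Genes of other pathway lists were named only where they passed a tumor or phase contrast, and the 3 genes most like a member by Pearson's r could be named. The members and lists were chosen with earlier results of these data known. Alternatives were ordinary p values, other sets of samples in the fit (vehicle mice only, only the groups compared, all regions together), no block, the mouse as a fixed effect, 1 mean value a mouse, medians subtracted, quantile normalization within a region, a mean log2 level of at least 5, samples with an RNA absorbance ratio of at least 1.8, and each mouse left out.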

Additional observations from a re-analysis of the deposited data

Results flagged for a closer look

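In 110 sets of 4 or 5 mice, 1 per member, region and group, Dixon's test set 9 samples apart from the rest of their group, where chance alone gives about 5.5. Nfkbia in the vehicle mice of mid-light was low in mouse 10, at 6.86 in HPC (the others 7.75 to 7.93) and 7.03 in BS (the others 7.59 to 7.74). In tumor mice of mid-dark, mouse 19 was low for Nfkb2 in HPC at 5.52 (others 6.03 to 6.13) and for Ikbkg in HYP at 8.77 (others 8.88 to 8.92). Mouse 11 of the same group was high for Nfkbie in BS at 6.63 (others 6.18 to 6.31) and for Rela in HYP at 8.07 (others 7.77 to 7.83). Mouse 23 was high for Ikbkg in BS at 8.64 (others 8.45 to 8.49), and mouse 3 for Ikbke in HPC at 5.00 (others 4.25 to 4.38). In vehicle mice of mid-light, Ikbkg in the HYP of mouse 2 was 8.99 (others 8.86 to 8.88).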

How the results depend on the processing

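Of 2338 alternative values of 92 results, 2254 were counted as kept and none reversed. A difference was kept if it held its direction and its side of the threshold. A count of members was also kept after a small change, so single members could cross the threshold within it. The count for phase over the 3 regions was 3 in the main fit. It ran from 2 to 4 with each mouse left out and was counted as kept throughout. With 1 mean value a mouse in place of the replicate block, Nfkbia lost its calls over the 3 regions for tumor (0.26, adjusted p = 0.28), phase (-0.23, 0.147), tumor at mid-light (0.51, 0.112) and phase in tumor mice (-0.48, 0.0769), Ikbkb that for phase in tumor mice (0.15, 0.12), and the number of members called became 0 for tumor, 0 for tumor at mid-light and 0 for phase in tumor mice. With no replicate block, Nfkbia differed by 0.23 for tumor (adjusted p = 0.0344), and the fit without the block changed no call. Without samples with an RNA absorbance ratio under 1.8, Nfkbia for tumor (0.26), Nfkb2 for phase (0.24) and Ikbkb for phase in tumor mice (0.15) lost their calls, leaving 0 members for tumor and 1 for phase in tumor mice, and with sample medians subtracted Ikbkb for phase in tumor mice (0.15) again left 1. Leaving out each mouse gave ranges over the 3 regions of 0.18 to 0.27 for Nfkbia and tumor, 0 to 1 members for tumor, -0.30 to -0.20 for Nfkbia and phase, 0.20 to 0.26 for Nfkb2 and phase, 0.35 to 0.53 for Nfkbia and tumor at mid-light, -0.52 to -0.40 for Nfkbia and phase in tumor mice, 0 to 1 members for phase in vehicle mice and 1 to 2 for phase in tumor mice. By region it gave 0 to 1 members for phase and for phase in tumor mice, in HPC and in BS alike. The counts of members by region pair stayed at 4 to 5, 7 to 8 and 8 to 9. HYP rests on 3 and 4 vehicle mice, and depth was unknown. The cause of the lost calls was not tested.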
